A study of Mus musculus with 15 samples.

Results

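The genes described here are the interferon-response families of the mouse: the signal transducers named Stat, the interferon regulatory factors (Irf), the Ifi, Isg, Oas, Gbp and Irgm/Iigp families, and Bst2, Usp18, Rsad2, Xaf1, Rtp4 and Igtp. Members were chosen by a rule on the symbol, and 60 of the 10222 gene symbols listed in the expression table met it. The rule was set with earlier results of these data known. Their levels were compared across 5 populations of freshly sorted cells; 15 libraries were made, 3 per population, and the replicates came from separate experiments. All cells came from C57BL/6 mice heterozygous for a citrine reporter of Il33, without further treatment in the labels; the age, the sex and any pooling of the mice are not given in the sources used here.

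Epithelial cells and Il33+ MSC came from the lung. Endothelial cells, Il33+ WAT-MSC and Il33- WAT-MSC came from fat. WAT-MSC are PDGFRα+CD34+Sca1+podoplanin+ stromal cells of white adipose tissue, which the labels name as mesenteric, negative for CD45, EpCAM, CD31 and CD24, and divided by citrine fluorescence. The endothelial cells carried CD31 and the epithelial cells EpCAM, both without CD45. The values are RPKM, read counts scaled to transcript length and to the number of mapped reads, summed over the listed transcripts of a symbol, of which 17 members had more than 1. Each library had 42711843 to 60773158 alignments. Read counts per gene were not used here, so the error given is the spread between libraries.

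Interferons are secreted antiviral cytokines that act through surface receptors and the kinases JAK1, JAK2 and TYK2. Type I and type III interferons activate a complex of STAT factors and IRF9, which binds the interferon-stimulated response element (ISRE), whereas interferon-γ activates STAT dimers, which bind gamma-activated sites (GAS). The induced proteins include GTPases that attack vacuoles holding pathogens (the IRG and GBP families), DNA-binding PYHIN proteins of the p200 family, RNA-binding IFIT proteins, the IFITM proteins that block virus entry at membranes, and the OAS enzymes that activate RNase L. Many are also present without infection, at levels that differ between cell types.

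The members fall into 6 STAT factors, 8 IRF factors, 2 IRF2-binding cofactors, 13 IRG and GBP GTPases, 6 PYHIN proteins, 4 IFITM proteins, 4 IFIT proteins, 3 OAS enzymes, 2 ISG12 proteins and 12 other induced or antiviral genes. Of the 60, 33 lie in 10 clusters on the genome, joined where neighbouring members were at most 500000 bases apart (RefSeq positions on GRCm38.p6, the patch release of the mm10 build named in the labels). The 6 PYHIN genes span 358.1 kb of chromosome 1 (chr1:173673628-174031755). Gbp2, Gbp3, Gbp5 and Gbp7 lie together on chromosome 3 (chr3:142496934-142638008), Gbp4, Gbp6, Gbp9 and Gbp10 on chromosome 5 (chr5:105076464-105295871), and the 4 Ifit genes on chromosome 19 (chr19:34550550-34650009). Neighbours in these clusters are close in sequence, so reads may have been divided between them, and single values of the PYHIN, Gbp, Irgm2/Igtp, Ifit3/Ifit3b and Ifitm genes are uncertain to that extent. The annotated spans of Ifi27 and Ifi27l2a overlap, and their reads may also be mixed.

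RefSeq promoter windows, from 250 bases before to 50 bases after the start of each gene, were given for 47 of the 60 members. The letters GAAA, NN and GAAA in direct sequence (N is any base), the core spacing of an ISRE, were searched on either strand. They were found for 24 of these 47 members (51.1%), against 3.99% of 27025 genes with a window and 3.88% of the 7758 such genes in the expression table. A gene with more than 1 window was counted once, if any of its windows held the letters. The GAS letters TTCNNNGAA were found in 13 (27.7%), against 9.55% and 8.03%. The 2 motifs can overlap, and a match is a description of the letters, not a site of binding. Among members with a window, the ISRE letters were present for 5 of 5 PYHIN, 7 of 8 IRG and GBP and 3 of 4 IFIT members. They were present for only 1 of 7 IRF factors (Irf2) and 1 of 5 STAT factors (Stat2). The stretches around the match are printed for the PYHIN and chromosome 3 Gbp clusters, whose levels differed between populations, and for Igtp, Irgm2, Oas1a and Isg15; capitals mark every overlapping match of the letters, on either strand.
Ifi203 (chr1:173942503-173942542, minus strand): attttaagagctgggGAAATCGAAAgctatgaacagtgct
Ifi205 (chr1:174031865-174031904, minus strand): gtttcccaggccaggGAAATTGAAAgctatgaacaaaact
Ifi207 (chr1:173741826-173741865, minus strand): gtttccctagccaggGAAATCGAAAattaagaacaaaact
Ifi208 (chr1:173673592-173673631, plus strand): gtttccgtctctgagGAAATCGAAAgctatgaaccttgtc
Ifi211 (chr1:173913059-173913098, minus strand): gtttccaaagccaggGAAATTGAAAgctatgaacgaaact
Gbp2 (chr3:142620589-142620628, plus strand): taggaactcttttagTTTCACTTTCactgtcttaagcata
Gbp3 (chr3:142559990-142560029, plus strand): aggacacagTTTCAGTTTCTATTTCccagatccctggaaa
Gbp5 (chr3:142496754-142496793, plus strand): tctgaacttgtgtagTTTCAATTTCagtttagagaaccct
Gbp7 (chr3:142530268-142530307, plus strand): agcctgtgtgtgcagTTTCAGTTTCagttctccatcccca
Igtp (chr11:58199507-58199546, plus strand): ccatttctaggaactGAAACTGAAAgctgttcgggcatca
Irgm2 (chr11:58214898-58214937, plus strand): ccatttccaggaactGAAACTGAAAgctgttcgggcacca
Oas1a (chr5:120907526-120907554, minus strand): ccttctcggGAAATGGAAACTGAAAatct
Isg15 (chr4:156200860-156200899, minus strand): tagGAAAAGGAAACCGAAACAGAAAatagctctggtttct

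In all 5 PYHIN stretches the match read along the gene, and in the 4 Gbp stretches it read on the opposite strand. The stretches of Igtp and Irgm2 differed at 2 of 40 bases, and those of Ifit3 and Ifit3b, not printed, at 0 of 40.

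The libraries carried the markers of their labels. Summed RPKM of 10 endothelial markers was 544.05 to 605.77 in the endothelial libraries and 24.27 to 74.43 in all others, and that of 10 stromal markers was 4951.8 or more in every MSC library and 153.89, 121.65 and 216.85 in epithelial replicates 1, 2 and 3. In the endothelial libraries stromal markers still summed to 2104.53, 2346.69 and 4325.55 RPKM. Endothelial replicate 1 stood apart, with 11.02% of all symbols listed at 0, against 1.63 to 7.03% in the others. In the epithelial libraries 57.7 to 62.9% of summed RPKM came from Scgb1a1, the secretoglobin of club cells. Leukocyte markers (14 of 18 listed; Ptprc, which encodes CD45, not analysed here) summed to 13.91 to 34.91 RPKM in Il33+ WAT-MSC, 43.88 to 113.34 in Il33- WAT-MSC, 218.71 to 232.37 in lung MSC, 266.84 to 555.3 in endothelial and 891.43 to 1773.43 in epithelial cells, in large part Cd74 and Lyz2, which other cell types also express. Their part in the member levels was not tested. In bulk RNA of a sorted population, fewer cells with a transcript and less transcript per cell cannot be told apart.

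All 60 members were detected. The highest mean lay in endothelial cells for 29 members (48.3%, against 20.2% of all symbols), in Il33- WAT-MSC for 15, in Il33+ WAT-MSC for 9, in epithelial cells for 5 and in lung MSC for 2. The lowest lay in epithelial cells for 44 (73.3%, against 40.1% of all symbols). In an F test across the 5 populations (limma on log2(RPKM + 1), Benjamini-Hochberg adjustment over all genes, threshold 0.05), 38 of the 60 members differed, 63.3%, against 42.7% of the 9981 genes tested. They included all 13 IRG and GBP GTPases, all 6 PYHIN proteins, both ISG12 proteins, 3 of 4 IFITM and 2 of 4 IFIT proteins, 7 of 12 other members, 3 of 8 IRF factors, 1 of 3 OAS enzymes and 1 of 6 STAT factors. The count ranged from 33 to 46 when single libraries were left out, with 46 without endothelial replicate 1. The only OAS enzyme called, Oasl2 (adjusted p = 0.0454, limma), lost its call without any 1 of 11 libraries (0.0568 to 0.127). Ifih1 also lost its call without any 1 of 11 (0.0503 to 0.118), and Ifit1 without any 1 of 5 (0.0609 to 0.0852, limma).

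**Figure D1:**
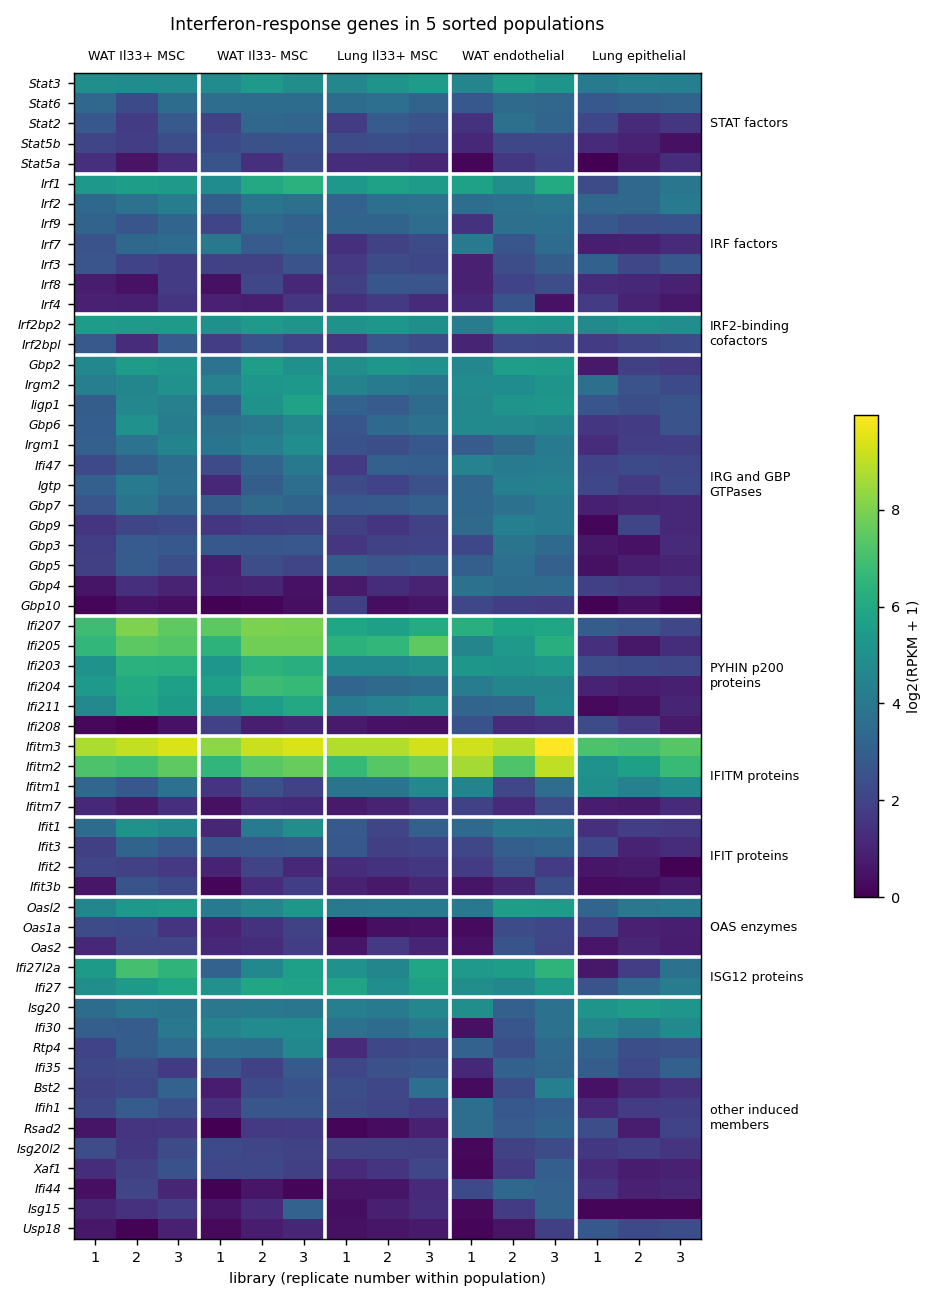
Levels of 58 of the 60 members as log2(RPKM + 1), one row per gene grouped by role and one column per library, with the 3 replicates of each population side by side. Ifitm3 and Ifitm2 are high in every population, the PYHIN rows other than Ifi208 are bright in both WAT-MSC and dark in epithelial cells, and most STAT and IRF rows have no such step between populations.

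Most transducers and regulators were present in all 5 populations, and their levels did not pass the test. Stat3, which acts downstream of IL-6 family cytokines, was the most abundant STAT: Il33+ WAT-MSC had 28.2 ± 1.44 RPKM (SD, n = 3), Il33- WAT-MSC 32.6 ± 7.67, lung MSC 34.2 ± 10.3, endothelial cells 34.3 ± 12.05 and epithelial cells 17.9 ± 2.07 (adjusted p = 0.0835, limma F test). Stat2, a transducer of the type I pathway, stood at 4.55, 6.79, 4.44, 7.39 and 2.28 RPKM in the same order, and libraries of different populations overlapped (adjusted p = 0.385, limma). Stat5b alone among the STATs differed (adjusted p = 0.00842, limma), with 0.36 to 1.25 RPKM in epithelial cells and 1.16 to 4.70 elsewhere.

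Among the IRF factors, Irf1, an early interferon-γ target and itself an activator, was the highest. It read 39.0, 46.2 and 41.3 RPKM in Il33+ WAT-MSC, 28.0, 64.0 and 81.3 in Il33- WAT-MSC, 38.3, 50.4 and 45.0 in lung MSC, 51.1, 29.6 and 66.7 in endothelial cells and 3.93, 9.09 and 14.3 in epithelial cells. The 3 epithelial libraries were the lowest of the 15, and the other populations overlapped one another (adjusted p = 0.000516, limma F test). Irf7, the amplifier of type I interferon production, averaged 8.04, 9.83 and 10.7 RPKM in the 3 WAT populations, 2.77 in lung MSC and 0.963 in epithelial cells (adjusted p = 0.000362, limma). Irf2, Irf3, Irf4, Irf8, Irf9 and the cofactors Irf2bp2 and Irf2bpl did not pass the F test.

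The receptors and kinases upstream were taken from a list of 86 other interferon-pathway genes, of which 61 were in the table. Ifnar2, a chain of the type I receptor, averaged 34.3 RPKM in Il33+ WAT-MSC, 40.6 in Il33- WAT-MSC, 54.1 in lung MSC, 34.9 in endothelial and 17.1 in epithelial cells, and its partner Ifnar1 6.18, 6.15, 5.203, 8.70 and 2.57. Ifngr1 ranged from 9.82 to 35.1 and Jak1 from 9.20 to 54.5 between population means, with the epithelial cells lowest for both. The 6 ligand genes on the list, Ifnb1 and Ifng among them, and Tyk2 were not analysed here. Ifnlr1, the specific chain of the type III receptor, was at 6.89, 3.23 and 2.55 RPKM in the epithelial libraries and below 1 in the other 12.

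Il33+ and Il33- WAT-MSC shared one adipose location and differed in the reporter, so this comparison asks which genes go with Il33 expression. No interferon-response member passed the threshold. Of 53 members tested, 0 were higher and 0 lower in Il33+ cells (limma), against 0.923% and 0.651% of the 8448 genes tested (1.57% in either direction), and 5 members had an unadjusted p under 0.05, against 11.6% of all genes. The median difference of the members was -0.03 on the log2 scale, and that of all genes -0.01; 24 members were fitted above 0 (45.3%, against 49.4%). The libraries did not overlap for 1 member that was higher (1.89%, against 8.84%) and 3 that were lower (5.66%, against 8.65%). Gbp10, Gbp4, Ifi208, Ifi44, Irf4 and Usp18 were among those too low to be tested here.

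Ifi30, a lysosomal thiol reductase of antigen processing, came nearest. It read 7.09, 6.44 and 15 RPKM in Il33+ WAT-MSC and 20.9, 27.0 and 28.0 in Il33- WAT-MSC. All Il33+ libraries were below all Il33- libraries, with a log2 difference of -1.40 (SE 0.32, adjusted p = 0.0579, limma). Without Il33+ replicate 3 it passed (adjusted p = 0.0305, limma), as it did under 5 other settings, and it did not pass under the other 9 of the 15 alternatives; over all 15, adjusted p ran from 0.0175 to 0.484. Leukocyte marker sums moved the same way, as given above, and their part in the difference was not tested. Ifi27l2a, an ISG12 protein of the inner mitochondrial or nuclear membrane, was at 41.5, 129 and 89.5 RPKM in Il33+ cells and 7.84, 24.4 and 48.0 in Il33- cells. The ranges overlapped, and the log2 difference of 1.84 (SE 0.56) did not pass (adjusted p = 0.177, limma). Ifi27l2a passed in 1 of the 15 alternatives, with the replicate number as a block (adjusted p = 0.00494, limma). The sources used here do not give the numbers as pairs. Ifitm1, higher in all 3 Il33+ libraries (8.65, 5.50 and 12.4 RPKM) than in the Il33- ones (1.84, 4.48 and 2.84), had an adjusted p of 0.159. The interval of the difference in Ifit1 ran from -0.64 to 2.86 on the log2 scale, so differences within it were not excluded here.

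Within both WAT-MSC populations many members were lowest in the same replicate. Replicate 1 was the lowest of 3 in both populations for 32 of the 60 members (53.3%), against 21.6% of 9561 symbols with a mean of at least 1 RPKM; replicate 2 was lowest in both for 4 (6.67%, against 7.73%) and replicate 3 for 1 (1.67%, against 4.35%). The 32 included 5 of 6 PYHIN genes, Ifit1, Ifit3, Ifit3b, Isg15, Rsad2, Oasl2, Irf1 and 11 of 13 GTPases. Ifit1, an RNA cap-binding protein, read 10.4, 34.0 and 25.9 RPKM in Il33+ replicates 1 to 3 and 1.10, 15.6 and 29.6 in Il33- replicates 1 to 3. Iigp1, an IRG GTPase, read 6.76, 23.7 and 19.5 and then 7.61, 34.2 and 52.6. Replicate 1 was lowest in both series for both genes.

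The median deviation of the 60 members from their population mean was -0.39 in Il33+ replicate 1, on the log2(RPKM + 1) scale, where that of all genes was -0.01. In Il33- replicate 1 it was -0.46, where that of all genes was -0.23, and 7.03% of symbols were listed at 0 there. In endothelial replicate 1 both medians were low, -0.45 and -0.37. Replicates 1 and 2 of each WAT population were sequenced in 1 lane and replicate 3 in the other, so replicate 1 was not alone in its lane. Mesothelial markers (7 of 8 listed) summed to 58.44, 142.93 and 164.1 RPKM in Il33+ replicates 1 to 3, to 41.49, 52.83 and 36.52 in Il33- and to 54.59, 215.18 and 243.61 in endothelial replicates. The sum was thus lowest in replicate 1 for Il33+ WAT-MSC and endothelial cells but not for Il33- WAT-MSC. In Il33- replicate 1 it came almost wholly from Wt1 (23.61 RPKM) and Rspo1 (17.85). Msln, Upk3b, Upk1b, Lrrn4 and Krt19 read 0.01, 0, 0, 0.02 and 0 RPKM there. Each of these was lowest in replicate 1 of every WAT population. The part of mesothelial RNA in the member values was not tested. Whether libraries with the same number came from the same mice is not given in the sources used here.

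**Figure D2:**
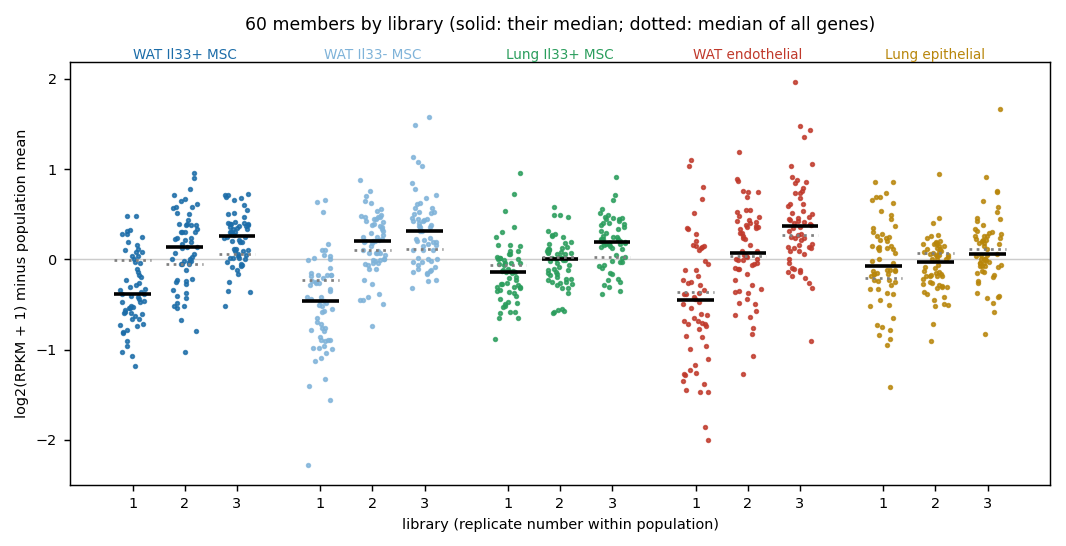
Deviation of each of the 60 members from its population mean on the log2(RPKM + 1) scale, by library, with the members' median as a solid line and the median of 9561 genes as a dotted line. In Il33+ WAT-MSC replicate 1 the members' median lies at -0.39 while the dotted line lies near 0, and in endothelial replicate 1 both lines lie low.

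Il33+ MSC of WAT and of lung carried the same reporter and differed in tissue. The PYHIN genes Ifi204 and Ifi207, the OAS genes Oas1a and Oasl2, Ifit1 and Igtp were higher in the WAT cells, and no member passed as lower. Of 54 members tested, 6 were higher in Il33+ WAT-MSC (11.1%, against 2.50% of 8554 genes, limma) and 0 were lower (against 3.50%). An unadjusted p under 0.05 (limma) was reached by 14 of the 54, against 17.4% of all genes. The members' median log2 difference was 0.29 and that of all genes 0.03. Of the 54, 37 were fitted above 0 (68.5%, against 53% of all genes). The libraries did not overlap for 11 higher (20.4%, against 12.1%) and 3 lower members (5.56%, against 11%).

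Ifi204, a nuclear DNA sensor and regulator of transcription, read 41.2, 67.4 and 48.2 RPKM in Il33+ WAT-MSC and 8.41, 9.91 and 11.3 in lung MSC. Every WAT library was above every lung library, with a log2 difference of 2.27 (SE 0.23, adjusted p = 0.000367, limma), and the call held under each of the 15 alternatives. Ifi207, its neighbour, read 116, 263 and 177 RPKM against 57.6, 48.1 and 69.1, again without overlap (1.59, SE 0.28, adjusted p = 0.00824, limma). Leaving out lung replicate 2 raised this adjusted p to 0.0614. The cluster did not move as one: Ifi205 stood at 95.4, 175 and 158 RPKM in WAT and 83.4, 96.4 and 180 in lung and overlapped (0.28, SE 0.32, limma), and Ifi203, at 34.2, 82.1 and 78.5 against 23.9, 24.4 and 29.7 RPKM, missed the threshold (1.20, SE 0.31, adjusted p = 0.0506, limma).

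Ifit1 was at 5.91, 3.28 and 7.24 RPKM in lung MSC, below all 3 WAT libraries given above, with a log2 difference of 1.82 (SE 0.41, adjusted p = 0.0248, limma). Oas1a, an OAS enzyme, read 3.89, 3.76 and 1.83 RPKM in WAT and 0, 0.34 and 0.40 in lung (1.71, SE 0.33, adjusted p = 0.0121, limma). It met the filter on low values only through the WAT libraries, where it is high, so its call is no support beyond those values. Oasl2, an OAS-like protein, read 23.0, 38.3 and 44.1 against 15.4, 16.3 and 16.7 RPKM (1.03, SE 0.25, adjusted p = 0.0373, limma). Igtp, which regulates other IRG proteins, read 7.30, 16.2 and 11.4 against 3.99, 2.96 and 4.62 RPKM (1.33, SE 0.31, adjusted p = 0.0284, limma). None of these 4 genes overlapped between the tissues.

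Mesothelial markers, summed to 20.89 to 29.16 RPKM in lung MSC, were lower there than in each Il33+ WAT-MSC library, and their part in these differences was not tested. The count of 6 fell to 2 without Il33+ WAT-MSC replicate 2, replicate 3 or lung replicate 1, to 1 without lung replicate 2 and to 4 without lung replicate 3, and rose to 12 without Il33+ WAT-MSC replicate 1, the library with the low member values. Oas1a was not tested when a WAT library was left out. With the lane as a covariate Igtp (adjusted p = 0.0682) and Ifit1 (0.0543) did not pass, whereas Irf7 (0.0337) and Irgm1 (0.0468, limma) did. When lost on leaving out a library, adjusted p ran from 0.0682 to 0.133 for Ifit1, 0.0623 to 0.155 for Igtp, 0.061 to 0.0677 for Oas1a and 0.0875 to 0.154 for Oasl2 (limma). Of 58 other pathway genes tested, 2 were higher in WAT and 0 lower, where 2.5% and 3.5% of all genes tested were. Slfn5, a Schlafen protein, read 66.6 ± 4.43 against 19.3 ± 2.13 RPKM (SD, n = 3, log2 difference 1.74, adjusted p = 0.000419, limma). Mx2, an antiviral dynamin-like GTPase, read 4.95 ± 1.47 against 1.26 ± 0.447 RPKM (1.38, adjusted p = 0.0276, limma). Mx2 lost its call without Il33+ WAT-MSC replicate 2 or 3 or any lung library (adjusted p = 0.0586 to 0.124, limma). Irf8, a factor of myeloid cells, was at 0.750, 0.410 and 2.29 RPKM in WAT and 2.73, 5.35 and 5.12 in lung, and did not pass (adjusted p = 0.0668, limma). The leukocyte marker sums were also higher in lung MSC, and their part in Irf8 was not tested.

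**Figure D3:**
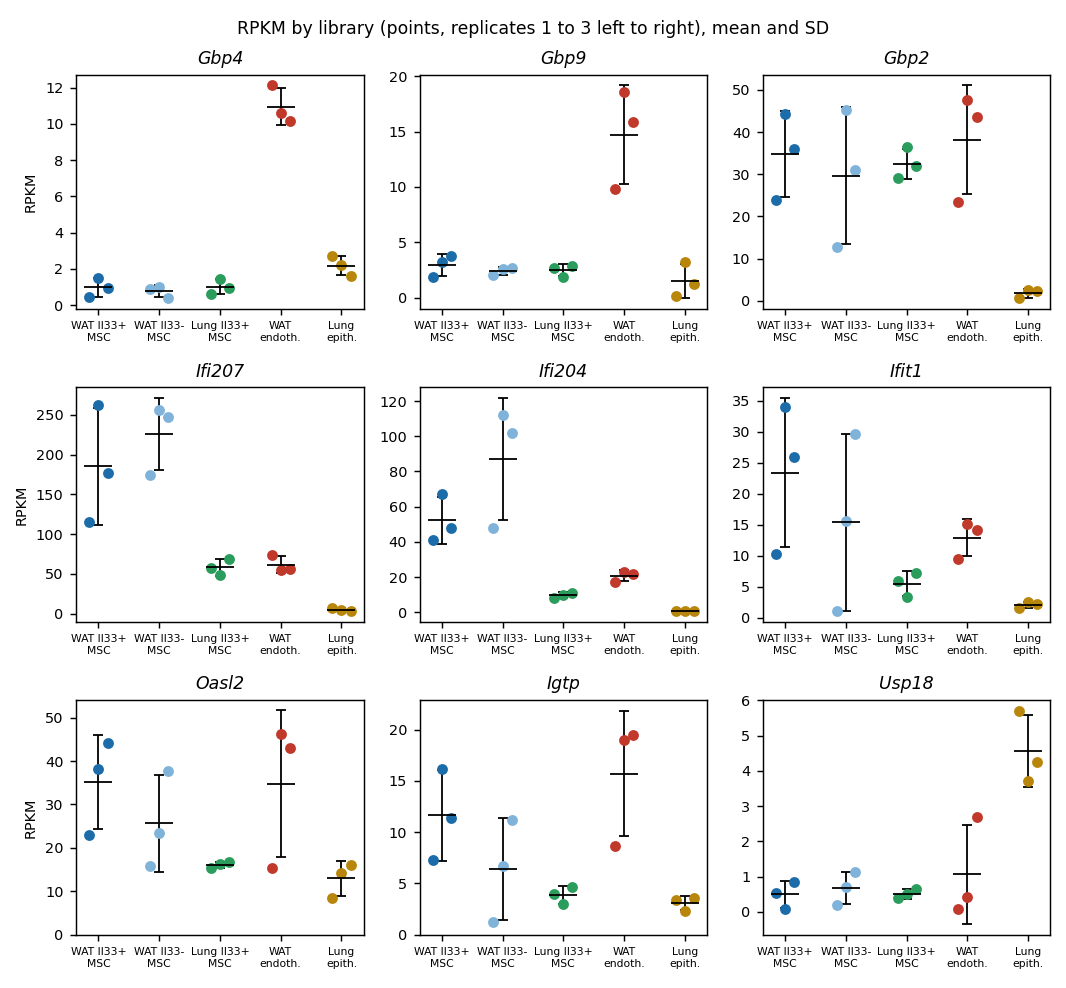
RPKM of 9 members by library, with points for the 3 libraries of each population and a black bar with whiskers for the mean and SD. Gbp4 and Gbp9 stand high in endothelial cells, Ifi204 and Ifi207 in both WAT-MSC populations, and Usp18 in epithelial cells, whereas Gbp2 is similar everywhere but in epithelial cells.

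Endothelial cells of WAT were set against each WAT-MSC population, and the 2 comparisons share the endothelial libraries. Gbp4 and Gbp9 of the chromosome 5 cluster were higher in endothelial cells in both comparisons, and Ifi204 and Ifi207 were lower. Against Il33+ WAT-MSC, 3 of 58 members tested were higher (5.17%, against 3.34% of 8665 genes, limma) and 2 lower (3.45%, against 0.565%). Against Il33- WAT-MSC, 4 were higher (6.90%, against 4.10% of 8713 genes) and 2 lower (3.45%, against 1.60%). In either direction the called shares of all genes were 3.9% and 5.69%. Members fitted above 0 numbered 35 (60.3%, against 38.9%) and 37 (63.8%, against 40.2%). Libraries did not overlap for 9 higher (15.5%, against 10.2%) and 5 lower members (8.62%, against 13%) against Il33+ WAT-MSC, and for 8 higher (13.8%, against 10.5%) and 8 lower (13.8%, against 13.4%) against Il33- WAT-MSC. The members' median log2 difference was 0.16 and 0.24 in the 2 comparisons, where the median of all genes was -0.18 and -0.17. Under median-ratio scaling of the libraries, which moved the median of all genes to -0.03 in both, the members' median was 0.34 and 0.35.

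Gbp4, a guanylate-binding GTPase, read 12.1, 10.6 and 10.2 RPKM in the endothelial libraries, 0.480, 1.52 and 0.950 in Il33+ WAT-MSC and 0.870, 1.02 and 0.390 in Il33- WAT-MSC. Every endothelial library was above every WAT-MSC library, with log2 differences of 2.62 (SE 0.39, adjusted p = 0.00701) and 2.78 (SE 0.39, adjusted p = 0.00354, limma). Gbp9 read 9.82, 18.5 and 15.8 RPKM in endothelial cells, 1.83, 3.24 and 3.73 in Il33+ and 2.02, 2.56 and 2.66 in Il33- WAT-MSC, also without overlap (1.99, SE 0.39, adjusted p = 0.0259, and 2.17, SE 0.38, adjusted p = 0.0103, limma). Gbp10 was low throughout, at 3.32, 2.61 and 2.40 RPKM in endothelial cells and at most 0.470 in WAT-MSC (adjusted p = 0.065 and 0.0338, limma). It met the filter only through the endothelial libraries, as did Ifi44 against Il33- WAT-MSC. Gbp4 reached 1 RPKM in WAT-MSC only in replicate 2 of each population. The calls of all these genes thus depended on the group where they are high.

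The fourth gene of that cluster, Gbp6, was at 26.4, 24.6 and 22.8 RPKM in endothelial cells, 6.98, 31.6 and 17.2 in Il33+ and 11.8, 14.9 and 23.8 in Il33- WAT-MSC; these overlapped and did not pass. The chromosome 3 cluster did not pass either: Gbp2, its most abundant gene, read 23.5, 47.5 and 43.7 RPKM in endothelial cells, 23.98, 44.3 and 36.1 in Il33+ and 12.8, 45.1 and 31.0 in Il33- WAT-MSC (log2 differences 0.11, interval -0.70 to 0.92, and 0.46, interval -0.60 to 1.52). Over the 13 GTPases, 12 were fitted above 0 against Il33+ and 11 against Il33- WAT-MSC, with medians of 0.64 and 0.59.

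Rsad2 (viperin), an antiviral enzyme, read 10.7, 6.18 and 8.26 RPKM in endothelial cells, 0.470, 1.86 and 1.97 in Il33+ and 0.02, 2.27 and 2.30 in Il33- WAT-MSC. All 3 endothelial libraries were higher than all 6 WAT-MSC libraries (adjusted p = 0.0444 and 0.0638, limma). Ifi44, an interferon-induced antiviral protein, read 3.66, 9.10 and 7.82 RPKM in endothelial cells and at most 0.530 in Il33- WAT-MSC (log2 difference 2.62, SE 0.46, adjusted p = 0.0103, limma), and in that comparison it met the filter only through the endothelial libraries. Against Il33+ WAT-MSC, at 0.320, 3.25 and 1.10 RPKM, its difference was 1.71 (SE 0.54, adjusted p = 0.152). Isg15, a ubiquitin-like modifier, read 0.200, 2.44 and 7.98 RPKM in the endothelial libraries and Bst2 (tetherin), which holds virus particles at the cell surface, 0.240, 4.09 and 18.5. For both, endothelial replicate 1 was at or near 0 and replicate 3 highest, and neither passed against either WAT-MSC population.

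In the PYHIN cluster the order was the other way. Ifi207 read 74.3, 54.7 and 56.3 RPKM in endothelial cells, below the 116, 263 and 177 of Il33+ and the 174, 257 and 247 of Il33- WAT-MSC (log2 differences -1.50, SE 0.34, adjusted p = 0.0451, and -1.85, SE 0.29, adjusted p = 0.00545, limma). Ifi204 read 17.2, 23.1 and 22.04 RPKM in endothelial cells and 47.9, 112 and 102 in Il33- WAT-MSC (-1.27, SE 0.29, adjusted p = 0.0473, and -1.94, SE 0.36, adjusted p = 0.0146, limma). Neither gene overlapped between endothelial cells and either WAT-MSC population. Ifi205, at 22.1, 41.1 and 75.4 RPKM against 95.4 or more in Il33+ and 85.8 or more in Il33- WAT-MSC, was also without overlap but did not pass (adjusted p = 0.0783 and 0.0588, limma). Ifi208, a low member, went the opposite way, at 4.73, 1.34 and 1.64 RPKM in endothelial cells and at most 0.390 in Il33+ WAT-MSC, and did not pass. Stromal markers summed to 2104.53, 2346.69 and 4325.55 RPKM in the endothelial libraries and to 4951.8 or more in every WAT-MSC library. The part of stromal RNA in the endothelial PYHIN values was not tested.

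Against Il33- WAT-MSC, Gbp4 and Ifi207 kept their calls under all 15 alternatives. The call of Gbp4 depended on the endothelial libraries to meet the filter, as given above. Against Il33+ WAT-MSC, Gbp4 lost its call without endothelial replicate 2 (adjusted p = 0.0682, limma). The 3 members higher there became 0 without endothelial replicate 2, 1 without endothelial replicate 3 or any 1 of the 3 Il33+ libraries, and 2 without endothelial replicate 1; the 2 lower became 0 without Il33+ replicate 2 or 3 or endothelial replicate 2, and 1 without Il33+ or endothelial replicate 1. When lost, adjusted p ran from 0.0673 to 0.186 for Gbp9, 0.0614 to 0.191 for Rsad2, 0.0626 to 0.184 for Ifi204 and 0.0699 to 0.229 for Ifi207. Over all 15 alternatives, against Il33+ WAT-MSC, the call of Ifi204 was lost in 13, that of Rsad2 in 10, that of Ifi207 in 8 and that of Gbp9 in 5, the lane covariate among them for Ifi204 (adjusted p = 0.0654) and Rsad2 (0.0657, limma). Against Il33- WAT-MSC the 4 higher became 1 without endothelial replicate 2, 2 without endothelial replicate 1 or 3 or Il33- replicate 1 or 3, and 3 without Il33- replicate 2; the 2 lower became 1 without Il33- replicate 2 or 3 or endothelial replicate 2, and 5 without endothelial replicate 3. Gbp10 and Ifi44 were not tested when an endothelial library was left out, which takes part in these counts. Lost calls there had adjusted p of 0.0893 for Gbp9, 0.129 to 0.179 for Gbp10, 0.0588 and 0.0589 for Ifi44 and 0.0638 to 0.0808 for Ifi204 (limma). The leukocyte marker sums were 293.84, 555.3 and 266.84 RPKM in endothelial replicates 1 to 3, above those of both WAT-MSC populations, and their part in these differences was not tested. Among 59 other pathway genes tested, 0 passed against Il33+ WAT-MSC, where 3.9% of all genes did. Against Il33- WAT-MSC 1 passed, where 5.69% of all genes did. This was Tmem173 (STING, an adaptor of DNA sensing), which was higher in endothelial cells (15.4 ± 3.69 against 4.36 ± 1.61 RPKM, SD, n = 3, adjusted p = 0.0386, limma). Tmem173 lost its call without any 1 of the 6 libraries.

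**Figure D4:**
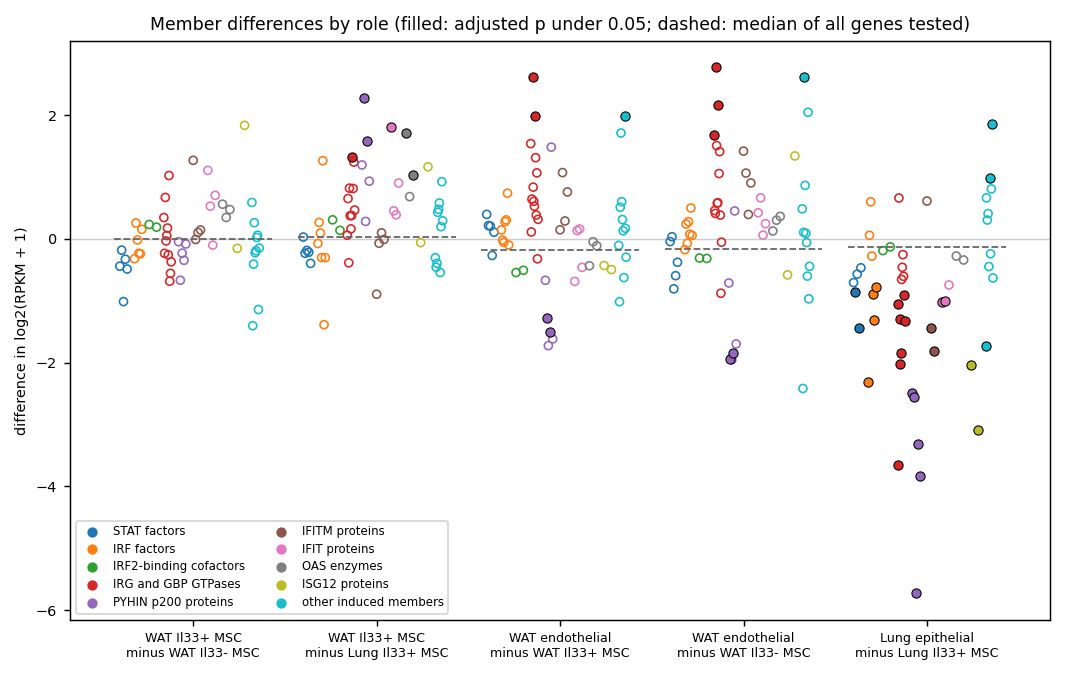
Difference in log2(RPKM + 1) of the same 58 members, where tested, in the 5 comparisons, coloured by role, with filled points past an adjusted p of 0.05 and a dashed line at the median of all genes tested. The comparison of Il33+ with Il33- WAT-MSC has no filled point, the PYHIN points lie above 0 for WAT against lung MSC and mostly below 0 for endothelial cells, and 25 filled points lie below 0 for lung epithelial cells.

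Lung epithelial cells and lung Il33+ MSC came from the same organ. The PYHIN genes tested, the chromosome 3 Gbp genes and the ISG12 genes were lower in the epithelial cells, and 3 members were higher. Of 53 members tested, 25 were lower (47.2%, against 24.4% of 9352 genes, limma) and 3 higher (5.66%, against 18.5%), so that 28 differed (52.8%, against 43%). The libraries did not overlap for 27 lower (50.9%, against 31.2%) and 6 higher members (11.3%, against 22.2%), and 11 were fitted above 0 (20.8%, against 44.6%). The members' median log2 difference was -0.70 and that of all genes -0.13. Under median-ratio scaling the median of all genes was 0.06, that of the members -0.54, and 20 were lower and 4 higher; the share of higher calls among all genes called moved from 43.1% to 51.4%.

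All 5 PYHIN genes tested were lower, with a median of -3.32. Ifi205 read 1.55, 0.570 and 1.49 RPKM in epithelial cells and 83.4, 96.4 and 180 in lung MSC (log2 difference -5.73, SE 0.33, adjusted p = 1.82e-06, limma). Ifi211 read 0.200, 0.370 and 1.07 against 15.9, 20.5 and 25.9 RPKM (-3.83, SE 0.31, adjusted p = 9.88e-06), and Ifi207 6.63, 5.12 and 3.37 against 57.6, 48.1 and 69.1 (-3.32, SE 0.26, adjusted p = 9.67e-06, limma). The 2 populations did not overlap for any of these. Ifi208, too low to be tested, was at 3.89, 2.13 and 0.650 RPKM in epithelial cells and 0.650, 0.410 and 0.380 in MSC.

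Of 12 GTPases tested, 7 were lower and 0 higher. Gbp2 read 0.610, 2.66 and 2.19 RPKM in epithelial cells against 29.1, 36.4 and 31.9 in MSC (-3.65, SE 0.33, adjusted p = 1.95e-05, limma). Gbp5, Gbp7 and Gbp3 of the same cluster followed, with differences of -2.02, -1.84 and -1.05. Gbp3 lost its call without any 1 of 3 libraries (adjusted p = 0.0841 to 0.0953, limma). On chromosome 5, Gbp6 was lower (-1.29, SE 0.36, adjusted p = 0.0176, limma), but Gbp4, at 2.69, 2.20 and 1.63 against 0.640, 1.46 and 0.940 RPKM, stood above all MSC libraries without passing (0.66, SE 0.28, adjusted p = 0.0882), and Gbp9 overlapped. Igtp, at 3.42, 2.27 and 3.54 RPKM, also overlapped with lung MSC.

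The ISG12 gene Ifi27 read 4.94, 10.3 and 17.0 RPKM in epithelial cells and 54.8, 28.6 and 49.5 in MSC (-2.04, SE 0.41, adjusted p = 0.00289, limma), and Ifi27l2a 0.570, 2.51 and 12.2 against 31.5, 22.6 and 56.8 (-3.08, SE 0.68, adjusted p = 0.0048). Ifitm3, the most abundant member of all 60, remained above 100 RPKM in epithelial cells, at 142, 125 and 161, but was lower than the 449, 445 and 620 of MSC (-1.81, SE 0.23, adjusted p = 0.000164, limma). Ifitm1 was not lower, at 30.1, 19.8 and 28.8 RPKM against 13.4, 13.5 and 24.8, and its populations overlapped. Among the regulators, Irf1 (-2.31), Irf8 (-1.31), Irf7 (-0.89), Irf9 (-0.77), Stat5b (-1.44) and Stat3 (-0.86) were lower. Irf7 lost its call without any 1 of 5 libraries (adjusted p = 0.0754 to 0.214, limma). Irf9 did so too without any 1 of 5 (0.0531 to 0.115), and Stat3 without either of 2 (0.0845 to 0.0917, limma). Stat5b was not followed through the alternatives.

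Bst2, the tetherin gene named above, was also lower, at 0.39, 1.10 and 1.66 against 4.27, 3.37 and 11.4 RPKM, without overlap (-1.73, SE 0.43, adjusted p = 0.00952, limma). The higher members included Usp18 and Isg20. Usp18, which removes ISG15 from proteins and damps signalling at the type I receptor, read 5.70, 3.71 and 4.26 RPKM in epithelial cells and 0.380, 0.510 and 0.660 in lung MSC (1.86, SE 0.27, adjusted p = 0.0004, limma); it met the filter only through the epithelial libraries. Its substrate Isg15 was at 0.0900, 0.110 and 0.110 RPKM in the same epithelial libraries, the 3 lowest values of the 15 libraries. Isg20, an exonuclease, read 34.8, 43.2 and 37.1 against 18.2, 15.8 and 23.4 RPKM (0.98, SE 0.22, adjusted p = 0.00542, limma). Oas1a and Rsad2, too low to be tested in this comparison, had means of 1.48 and 2.62 RPKM in epithelial cells and 0.247 and 0.417 in MSC.

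Among 55 other pathway genes tested, 17 were lower in epithelial cells and 4 higher, where 24.4% and 18.5% of all genes tested were. Of the receptor chains, Ifnar1 and Ifngr2 did not pass. Ifnar2 (-1.68, adjusted p = 0.00195) and Ifngr1 (-1.01, adjusted p = 0.0124, limma) were lower, as was Jak1 (-1.63, adjusted p = 0.000452). Ifnlr1 (2.20, adjusted p = 0.000569) and Il10rb (0.96, adjusted p = 0.0112, limma), the 2 chains of the type III receptor, were higher. Il10rb lost its call without epithelial replicate 2 or 3 (adjusted p = 0.0546 and 0.0519, limma). Ifngr1 lost its call without lung MSC replicate 2 or 3 (0.0533 and 0.0552, limma). Ifnlr1 met the filter only through the epithelial libraries and Socs1, given next, only through the MSC libraries. Of the feedback inhibitors, Socs3 fell from 146 ± 22.8 RPKM in MSC to 18.9 ± 2.51 in epithelial cells (SD, n = 3) and Socs1 from 3.41 ± 0.300 to 0.0767 ± 0.116, with log2 differences of -2.89 and -2.04 (adjusted p = 5.71e-06 and 0.00013, limma). The chemokine Cxcl10 was at 4.39, 4.01 and 3.32 RPKM in epithelial cells and 27.0, 63.1 and 82.1 in MSC (-3.44, adjusted p = 6.74e-05, limma).

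Of the 28 members called here, 15 of the 25 followed through the alternatives kept their call wherever they were tested, and these were the 5 PYHIN genes, Gbp2, Gbp7, Ifi27, Ifi27l2a, Ifitm3, Irf1, Irf8 and the 3 higher members. Usp18 was tested in 11 and Ifi204 in 12 of the 15 alternatives; Ifi204 and Ifit2 met the filter only through the MSC libraries. The count of lower members was 16 without lung MSC replicate 2 and 15 without lung MSC replicate 3, and 18 to 22 without any of the other 4 libraries. Among those tested, the 19 members with the ISRE letters in a promoter window had a median difference of -1.43, with 14 lower, where 24.4% of all genes were. The 22 with a window but without the letters had a median of -0.40, with 7 lower and 1 higher. For Il33+ WAT-MSC against lung MSC the medians were 0.47 and -0.07. In the other comparisons they lay closer together. They were 0.06 and -0.18 for Il33+ against Il33- WAT-MSC. For endothelial cells they were 0.23 and 0.14 against Il33+ and 0.32 and 0.04 against Il33- WAT-MSC. These are descriptions of the 2 sets, and the difference between them was not tested. The sets also differ in family, since most PYHIN, GTPase and IFIT members with a window carry the letters and most IRF and STAT factors do not.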

How the data were processed

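RNA of 15 sorted-cell libraries was amplified (Ovation V2), sequenced and, per the labels and the study's methods, aligned with TopHat2 in Partek against mm10; how transcripts were counted is not given in the sources used here. The authors deposited RPKM per RefSeq transcript (12698 rows), normalized for length and mapped reads. RPKM keeps no counts, and where 1 transcript takes much of a library the others read lower. RPKM was summed per symbol. The program limma (3.58.1, under R 4.3.3; lmFit, then eBayes with trend) estimated differences on log2(RPKM + 1) in the 6 libraries compared. Genes entered where 3 or more of these libraries reached 1 RPKM, with Benjamini-Hochberg adjustment over all genes and a threshold of 0.05; the F test used 15 libraries. Fold changes on this scale understate the change of low genes. The fit was tested on simulated data with 200 changed genes. Other steps used Python 3.11.15, pandas 2.3.3, numpy 2.4.6 and matplotlib 3.10.9.

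Members, roles, pathway and marker lists were chosen with earlier results of these data known. Named genes are the members past the threshold without overlap (up to 8 in each direction), the 3 most abundant of each role, a fixed list of common interferon-response genes and, of the other pathway genes, up to 4 past the threshold in each direction with the receptors and kinases. Results of 2 members are not reported here singly, although counts and medians over all members include them. Other genes, named where a cluster or count is described, were chosen after their values were seen. Alternatives were the lane as a covariate, a replicate block, 1 fit of all libraries, quantile normalization, median-ratio scaling, no filter, a filter at 5 RPKM, a pseudocount of 0.1, the most abundant transcript, and each library left out.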

Additional observations from a re-analysis of the deposited data

How the results depend on the processing

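No named difference that passed the threshold changed direction under any alternative run. For Il33+ against Il33- WAT-MSC, 1 member was higher with the replicate block (Ifi27l2a, adjusted p = 0.00494, limma), and 1 was lower with the replicate block, the lane, median-ratio scaling, quantile normalization or the stricter filter (Ifi30). For Il33+ WAT-MSC against lung MSC, 2 were higher in the fit of all 15 libraries and 3 without a filter, and 1 was lower with median-ratio scaling or quantile normalization. For endothelial cells against Il33+ WAT-MSC, the fit of all libraries gave 6 higher and 4 lower, and the lower count was 1 with median-ratio scaling or the most abundant transcript and 0 with quantile normalization, the pseudocount of 0.1 or no filter. Against Il33- WAT-MSC, 2 were higher with the stricter filter, and the lower count was 5 with the replicate block, all libraries or quantile normalization and 4 with the lane or median-ratio scaling. For epithelial cells against lung MSC, quantile normalization gave 5 higher. Leaving out 1 library gave, for higher and lower members, 0 to 0 and 0 to 1 (Il33+ against Il33-), 1 to 12 and 0 to 1 (WAT against lung MSC), 0 to 2 and 0 to 2, then 1 to 3 and 1 to 5 (endothelial against Il33+, then Il33-), and 2 to 4 and 15 to 22 (epithelial), with 33 to 46 in the F test; a population left with 2 libraries makes a weaker test by construction. Over all genes, higher and lower calls for Il33+ against Il33- WAT-MSC were 78 and 55, but 143 and 89 with the replicate block and 13 and 7 without a filter, with 87 lower under quantile normalization. For WAT against lung MSC 214 and 299 became 135 and 196 in the fit of all libraries. For endothelial cells against Il33+ WAT-MSC 289 and 49 became 488 and 315 in that fit, with 28 lower at the pseudocount of 0.1. Against Il33- WAT-MSC 357 and 139 became 601 and 445 in that fit, with 248 lower with the replicate block and 245 under quantile normalization. For epithelial cells 1734 higher became 1069 with the stricter filter. Leaving out 1 library, all-gene counts ran, in the order of these comparisons, from 35 to 55 higher and 11 to 67 lower, 107 to 159 and 81 to 288, 55 to 208 and 1 to 134, 103 to 272 and 30 to 217, and 776 to 1543 and 1391 to 2128. The cause of the other changes was not tested. Correlations of the deviations of same-numbered libraries averaged 0.01 to 0.10 per comparison and were not above 0.1 for every number in any comparison, so replicate numbers were not treated as pairs. Each library correlated best with its own number in 6 of 6 libraries in 3 comparisons and 2 of 6 in the other 2, a hint from the data and not from the design. With the replicate block 7 members were higher in WAT than in lung MSC: Igtp no longer passed (adjusted p = 0.056), and Ifi203 (0.0365) and Irf7 (0.0334, limma) did. For endothelial cells against Il33+ WAT-MSC, Ifi204 (0.0507) and Rsad2 (0.0719) no longer passed with the block and Ifi205 (0.0184, limma) did. With 3 libraries a population and no read counts, the precision of members near 1 RPKM is unknown.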
